A study of Rattus norvegicus with 20 samples.

Results

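Melanocortin receptors are G protein-coupled receptors that raise cyclic AMP when bound by the peptides cut from pro-opiomelanocortin, adrenocorticotropic hormone (ACTH) and the melanocyte-stimulating hormones. Mc1r sets pigment type in melanocytes and Mc2r is the ACTH receptor of the adrenal cortex. Mc3r and Mc4r are the receptors of the brain, where they act in energy balance, and Mc5r is known from exocrine glands. In the hypothalamus Mc3r is a receptor of the arcuate nucleus (ARC) itself, while Mc4r is best known from the paraventricular neurons that ARC fibres reach. Agouti-related peptide, made by ARC neurons, opposes the peptide agonists at Mc3r and Mc4r. The 5 receptor genes Mc1r to Mc5r were looked up by name among the array probes that are not controls. A probe was found for 4 of them, and no probe carried the name Mc1r, which was therefore not measured. Of the 25926 genes with a probe in the series, 17086 passed the filter on dim probes, and among these were 2 receptors, Mc3r and Mc4r.

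Expression was measured in ARCs of 20 female Sprague-Dawley rats on postnatal day 15, 4 in each of 5 groups. SNS rats were exposed to saline before birth, had no spasms and received saline after birth. BNS rats differed in the prenatal exposure, which was betamethasone given to the mother on gestational day 15 in 2 injections of 0.4 mg/kg each, and also had no spasms and postnatal saline. BYS, BYA and BYP rats had the same betamethasone exposure and spasms triggered with N-methyl-D-aspartate on postnatal days 12, 13 and 15, and were treated with saline (BYS), ACTH (BYA) or PMX53, an antagonist of the complement receptor C5ar1 (BYP). The labels place these treatments on postnatal days 13, 14 and 15, while the methods of the study start them earlier. ACTH is thus a ligand of the receptors described here that was given to BYA rats alone. Every spasm group carries the betamethasone exposure, so no group had spasms without it. Litters were culled to 4 females, and the labels do not say which samples were littermates.

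RNA of each rat was labelled with Cy3 or Cy5, 2 samples of each group with each dye, and each channel was taken as 1 sample. The 20 samples lay on 11 arrays of 6 slides. No slide held samples of more than 1 group, and BYA replicate 3 was on a different slide from the other BYA samples, so slide and group cannot be told apart. The median spot signal was 14.1 to 19.9 times the local background in BNS samples and 14.0 to 19.8 times in BYS samples. It was lower in the other groups, with 5.42 to 11.4 times in SNS, 6.55 to 10.5 times in BYA and 7.07 to 10.9 times in BYP. For BYA replicate 3 the dye label and the order of names in its raw data do not match, so it is not certain which of the 2 animals on that array its channel holds. Among ARC neuron markers, 13 of 14 passed the filter and 11 were well above background in all 20 samples, among them Agrp, Npy, Pomc, Kiss1 and Th. The exception was Otp. Of 6 anterior pituitary hormone genes, Prl was well above background in 0 samples and Gh1 in 1, while Lhb was in 20.

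Each receptor was read by 1 probe of 60 bases, with 1 spot per array, so the identity of each value rests on the sequences that follow. They are given 5′ to 3′ because the array reads the receptors through these stretches alone. Capitals in the Mc3r and Mc4r probes mark the bases that are identical in the best ungapped alignment of both.
Mc3r: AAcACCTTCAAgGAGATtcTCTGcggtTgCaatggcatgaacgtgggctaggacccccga
Mc4r: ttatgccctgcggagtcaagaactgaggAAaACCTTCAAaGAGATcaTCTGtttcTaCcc
Mc5r: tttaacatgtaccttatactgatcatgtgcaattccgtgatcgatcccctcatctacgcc
Mc2r: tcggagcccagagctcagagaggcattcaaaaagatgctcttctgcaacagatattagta

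The files place the Mc3r probe at chr3:163159796-163159855 on the plus strand, the Mc4r probe at chr18:63391440-63391499 on the minus strand, the Mc5r probe at chr18:64679490-64679549 on the minus strand and the Mc2r probe at chr18:64601788-64601847 on the plus strand, all on the rat build rn4. The files give no exon or UTR annotation. In the first reading frame of the Mc3r probe a stop codon starts at base 49, and in the second frame of the Mc2r probe a stop codon starts at base 56, with 9 and 2 bases left after it. In the best ungapped alignment of the Mc3r and Mc4r probes 21 of 32 bases were identical, with a longest identical run of 8 bases. In that of each other pair of receptor probes the longest identical run was 3 to 6 bases. Runs shared outside these alignments were not searched for. The ungapped share of identical bases went up to 65.6%, for Mc3r and Mc4r.

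Only Mc3r was detected throughout. A spot was taken as detected where the extraction software had flagged it as well above background. Mc3r was detected in 20 of 20 samples, with a signal of 5.84 to 33.8 times the local background (median 14.3). Mc4r was detected in 17 of 20 samples, with 3.15 to 13.5 times the background (median 6.48). The 3 samples without the flag were SNS replicates 1 and 3 and BYA replicate 1, all labelled with Cy3. Mc5r was detected in 5 of 20 samples, with 1.36 to 5.55 times the background (median 2.99). These 5 were SNS replicate 4, BNS replicates 2 and 4 and BYS replicates 2 and 4, all labelled with Cy5, and none of the BYA or BYP samples. Mc2r, the receptor that takes ACTH alone, was detected in 0 of 20 samples, with 1.33 to 4.64 times the background (median 1.96).

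Set against the 153 negative control spots of each channel, the Mc3r signal was above their 95th percentile in 20 samples, Mc4r in 19, Mc5r in 13 and Mc2r in 6. No receptor spot was saturated or flagged as an outlier. Mc5r and Mc2r did not pass the filter, which asked for detection in all 4 samples of at least 1 group, and their levels are described further on without a place in the main test. The number of samples, 4 rats a group, limits the precision of these levels.

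**Figure D1:**
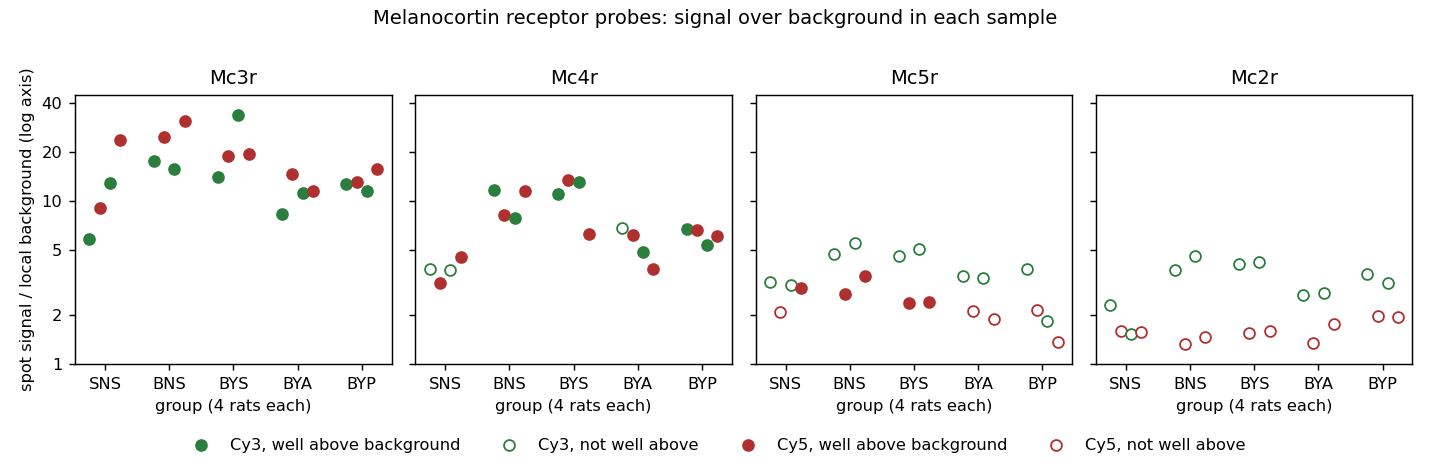
Ratio of spot signal to local background (log axis) for the probes of Mc3r, Mc4r, Mc5r and Mc2r in each of the 20 samples, by group. Filled points were flagged as well above background, open points were not, and the colour gives the dye. All Mc3r points are filled, Mc4r has 3 open points (2 in SNS, 1 in BYA), Mc5r has 5 filled points and Mc2r has none.

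Mc4r was lower in rats exposed to prenatal saline than in every group exposed to betamethasone, and did not differ beyond its error among the betamethasone groups. Levels are normalized log2 intensities, in which a difference of 1 is a doubling. In SNS the log2 level of Mc4r was 7.95, 7.95, 8.05 and 8.06 in replicates 1 to 4. In BNS it was 8.57, 8.43, 8.21 and 8.47, and in BYS 8.56, 8.78, 8.62 and 8.19. All 8 of these lay above the highest SNS value. In BYA the level was 8.50, 8.88, 8.33 and 8.39, and in BYP 8.63, 8.52, 8.48 and 8.45. The 16 betamethasone-exposed samples therefore all lay above the 4 SNS samples, and the ranges of the betamethasone groups overlapped with each other in every pair. The share of all genes with such a separation is not given here, so it is not shown to be particular to Mc4r. In order of the mean, Mc4r was at 8.00 ± 0.06 in SNS, 8.42 ± 0.15 in BNS, 8.52 ± 0.08 in BYP, 8.52 ± 0.25 in BYA and 8.54 ± 0.25 in BYS (SD, n = 4 each). Only the first pair of neighbours in this order was set apart by more than the spread of its samples.

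**Figure D2:**
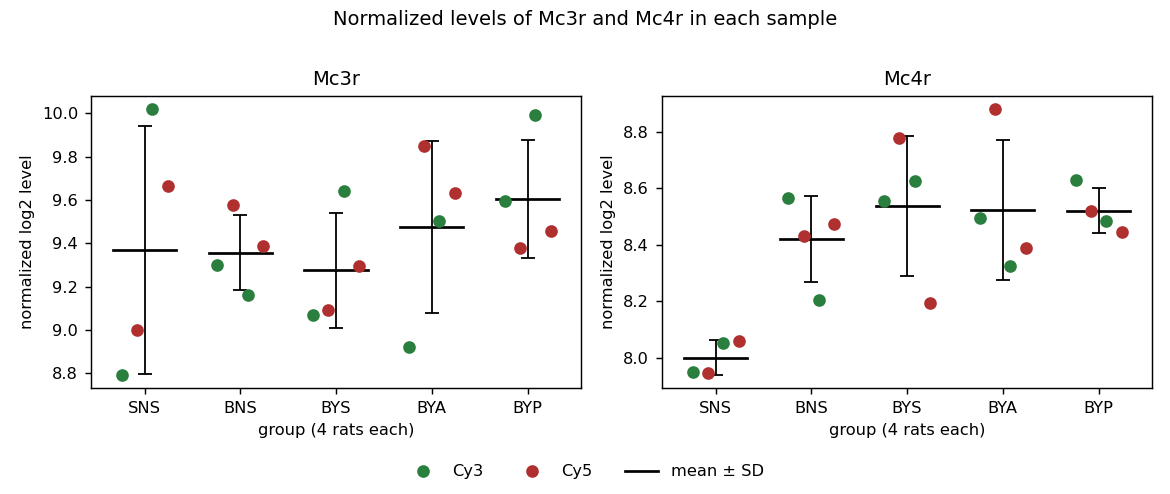
Normalized log2 levels of Mc3r (left) and Mc4r (right) in each sample, by group, coloured by dye, with the mean and SD of 4 samples in black; the vertical axes differ. The Mc4r points of SNS, from 7.95 to 8.06, lie under all points of the other groups, while the Mc3r points overlap in every pair of groups.

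The groups were compared in 1 limma fit over the 20 samples that also held a term for the dye, and p-values were adjusted by the Benjamini-Hochberg method over all genes tested. Mc4r was 1.34-fold higher in BNS than in SNS, with a log2 fold change of 0.42 (standard error 0.129, 95% interval 0.15 to 0.69, limma adjusted p = 0.0222). It was 1.45-fold higher in BYS than in SNS (log2 fold change 0.54, limma adjusted p = 0.00554), 1.44-fold higher in BYA (0.52, limma adjusted p = 0.00567) and 1.43-fold higher in BYP (0.52, limma adjusted p = 0.00641), with the same standard error. These comparisons share the SNS samples. A change against SNS was common on these arrays. Of all genes tested, 28.6% were called in BNS against SNS, 27.1% in BYS, 31.3% in BYA and 28.9% in BYP, so 1 call among 2 receptors says little about the receptors as a set. With the array as a random block, which allows for the pairs of samples that share an array, these shares were 15.1%, 13.9%, 19.4% and 15.5%. Mc4r passed the filter on dim probes through BNS, BYS and BYP, in which all 4 samples were detected, and not through SNS, where it was lowest. An F test over all 5 groups called Mc4r (limma adjusted p = 0.0144) and not Mc3r (0.748), and called 30.3% of all genes. The F test did not call Mc4r with processed signals (limma adjusted p = 0.214), with the array as a random block (0.1004), without SNS replicate 1 (0.0518) or without SNS replicate 2 (0.0568). In bulk tissue, fewer cells of a type and less RNA per cell cannot be told apart.

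The Mc4r difference from SNS was present within each dye. Between BNS and SNS it was 0.39 on the log2 scale in the Cy3 samples and 0.45 in the Cy5 samples, and in BYA against SNS it was 0.41 and 0.63. Before any background correction, the Mc4r signal relative to the median spot of its channel was 0.511 to 0.562 in the 2 Cy3 samples of SNS and 0.568 to 0.802 in the 8 Cy3 samples of the betamethasone groups. In the Cy5 samples it was 0.367 to 0.391 in SNS and 0.439 to 0.917 in the betamethasone groups. The ranges did not overlap within either dye, although in Cy3 the values 0.562 and 0.568 lay close together. The share of all genes with such ranges is not given here. The median signal over background of the SNS samples overlapped with that of BYA and BYP and lay below that of BNS and BYS. Mc4r was well above background in 2 of 4 SNS samples, so the SNS mean rests in part on a dim spot, and the part of signal strength in the difference was not tested.

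With the extraction software's own processed signals, no Mc4r difference from SNS was called (limma adjusted p from 0.076 to 0.284), although the log2 fold changes were 0.40 to 0.66. With channels scaled to a common median, the differences of BYS and BYA from SNS were not called (limma adjusted p = 0.0812 and 0.0534), and they were not called by the methods' test after Benjamini-Hochberg adjustment. With the array as a random block, the difference between BNS and SNS was not called (limma adjusted p = 0.09) and the other 3 were (0.034 to 0.0383). Without BNS replicate 1 or 4, or without SNS replicate 1 or 2, the difference between BNS and SNS was not called either, with a limma adjusted p of up to 0.0746. Without BYA replicate 3, whose channel is uncertain, Mc4r was still called in all 4 comparisons with SNS.

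**Figure D3:**
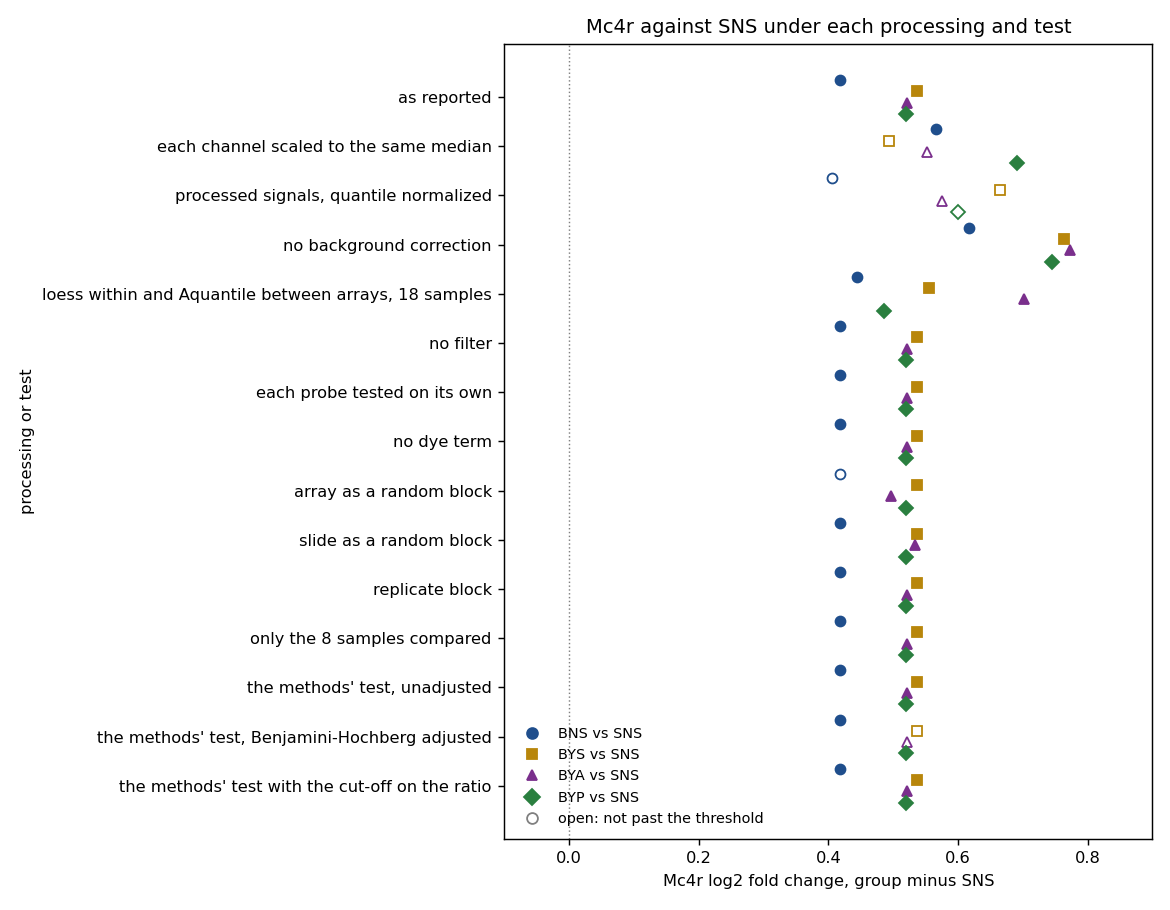
Mc4r log2 fold change of each betamethasone group against SNS (horizontal axis) under each processing and test (vertical axis); filled points passed the threshold of that test, open points did not. All points lie between 0.40 and 0.77, to the right of 0, and the row of processed signals has only open points.

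Markers of neighbouring tissue were read beside the comparison with SNS. The paraventricular and magnocellular list, which stands for neurons known to carry Mc4r, had 5 of 5 genes past the filter. The sum of their normalized intensities was 5982 to 6838 in SNS and 5480 to 6913 in BYS. It reached lower values in BNS (4177 to 6473), BYA (3739 to 5679) and BYP (5051 to 5939). Against SNS, limma called 1 gene of this list lower in BNS and 1 in BYA, and none in BYS or BYP. The median log2 fold change of the list was -0.34 in BNS, -0.26 in BYS, -0.45 in BYA and -0.30 in BYP. Over all genes it was -0.04, -0.03, -0.04 and -0.04. For the choroid plexus, 2 of 5 genes passed the filter, with a sum of 3304 to 6878 in SNS and of 1697 to 3457 over the other groups. Neither list was at 0. Over all marker lists together, 60 genes passed the filter without being pathway genes, and 9 to 11 of them were called in each comparison with SNS (15% to 18.3%).

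Olig2, a transcription factor of the oligodendrocyte lineage, was called in all 4 comparisons. It was higher than in SNS by a log2 fold change of 1.05 in BNS, 1.27 in BYS, 0.94 in BYA and 1.11 in BYP (limma adjusted p of 1.26e-05 or lower). The other 5 oligodendrocyte genes were not called. Against SNS, the median log2 fold change of the 6 was -0.35 for BNS, -0.15 for BYP, -0.12 for BYS and -0.02 for BYA. Over all genes it was -0.04 to -0.03. Olig2 and the median of its list thus had opposite signs. The summed level of the 6 was 6345 to 19180 in SNS and 8570 to 18798 over the other groups. Of 4 red blood cell genes, Alas2 was higher in BNS (0.99), BYS (0.93) and BYA (1.02) and Hba-a1 was higher in BNS (0.71), BYS (0.42) and BYA (0.54), with none called in BYP. The red blood cell sum was 92141 to 119170 in SNS and 71661 to 162609 over the other groups. Of 6 microglia genes, Cx3cr1 was lower in BNS (-0.73), BYS (-1.22) and BYP (-0.61), C1qa was higher in BYS (0.49) and Itgam was higher in BYP (0.72). The microglia sum was 22739 to 27563 in SNS and 21907 to 34919 over BYS, BYA and BYP, and is not given for BNS because C1qa was left out as an outlier in BNS replicate 4. Of 5 thalamus genes, Tcf7l2 was lower in BNS (-0.58), BYA (-0.55) and BYP (-0.49), Lef1 was higher in BYS (0.34) and BYA (0.27) and Prkcd was higher in BYP (0.60), with a sum of 28732 to 36165 in SNS and 17804 to 36469 over the other groups. Of 5 astrocyte genes, Gfap (0.86) and S100b (1.31) were higher in BYP, with a sum of 9665 to 12711 in SNS and 8212 to 15950 over the other groups. The part of these cell types in the Mc4r difference was not tested.

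ACTH treatment was not accompanied by a detectable change in either receptor. Mc4r in BYA was 0.99 times its level in BYS, with a 95% interval of 0.82 to 1.19 (limma adjusted p = 0.99), and Mc3r was 1.15 times its level, with an interval of 0.809 to 1.63 (0.883). In this comparison limma called 0% of all genes, that is 0 of 17086, while 1379 genes had an unadjusted p under 0.05. Neither receptor was among these 1379, nor was either called by the test and ratio cut-off of the study's methods. Between BYP and BYA Mc4r had a ratio of 0.998 (interval 0.828 to 1.20) and Mc3r one of 1.09 (0.771 to 1.55), with 0.158% of all genes called.

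Spasms and PMX53 were likewise not accompanied by a call. Between BYS and BNS, where 0.0293% of all genes were called, the Mc4r log2 fold change was 0.12 (95% interval -0.15 to 0.39) and that of Mc3r was -0.08 (-0.59 to 0.42). Between BYP and BYS, with 0.0351% of genes called, Mc4r was at -0.02 (-0.29 to 0.25) and Mc3r at 0.33 (-0.18 to 0.84). Against BNS, Mc4r was at 0.10 in both BYA (-0.17 to 0.37) and BYP (-0.17 to 0.37), where 0.117% and 1.5% of genes were called. Mc3r was at 0.12 in BYA (-0.39 to 0.62) and at 0.25 in BYP (-0.26 to 0.76) against BNS. The limma adjusted p of either receptor in these 4 comparisons was 0.638 or higher.

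**Figure D4:**
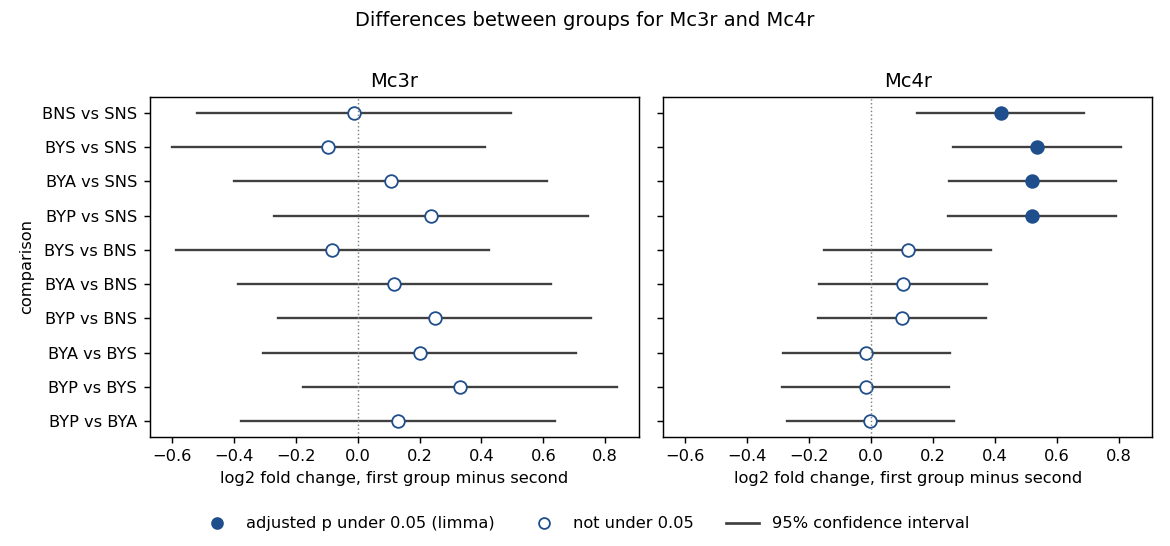
Log2 fold change (point) with its 95% interval (line) for Mc3r and Mc4r in the 10 comparisons of groups, first group minus second; filled points had a limma adjusted p under 0.05. Filled points are the 4 Mc4r comparisons with SNS, from 0.42 to 0.54, and every Mc3r interval crosses 0.

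Mc3r varied more between samples of a group than Mc4r and did not separate the groups. In SNS its log2 level was 8.79, 8.998, 10.02 and 9.67 in replicates 1 to 4, the widest spread of any group. In BNS it was 9.30, 9.58, 9.16 and 9.39, and in BYS 9.07, 9.09, 9.64 and 9.30. In SNS the pair on the second array, replicates 3 and 4, was above the pair on the first. In BYA the level was 8.92, 9.85, 9.50 and 9.63, and in BYP 9.60, 9.38, 9.99 and 9.46. All groups overlapped. In order of the mean, Mc3r was at 9.28 ± 0.27 in BYS, 9.36 ± 0.17 in BNS, 9.37 ± 0.57 in SNS, 9.48 ± 0.40 in BYA and 9.61 ± 0.27 in BYP (SD, n = 4 each), and no neighbours in this order differed beyond their spread. Against SNS the log2 fold changes ran from -0.09 in BYS to 0.24 in BYP, with a standard error of 0.241 and limma adjusted p-values of 0.477 and higher. The residual SD of Mc3r in the fit was 0.375, larger than that of 92.2% of genes, and that of Mc4r was 0.183, larger than that of 44.2%. As fold changes, the 95% intervals of Mc3r against SNS had a lowest end of 0.660 (BYS) and a highest end of 1.67 (BYP). A change within the interval of its comparison remains compatible with these data.

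The genes whose dye-adjusted levels followed Mc3r most closely over the 20 samples, among 16298 genes without missing values, were Ptger2, a prostaglandin E receptor (Pearson r = 0.881), Nr5a1, the transcription factor that marks the ventromedial hypothalamus (0.874), and Cbln1, a secreted synapse organizer (0.862). Nr5a1 was at a log2 level of 10.80 ± 0.70 in SNS and 11.54 ± 0.25 in BYP (SD, n = 4 each). As deviations from the group means, the correlations with Mc3r were 0.881, 0.914 and 0.870 in the same order. The samples share slides and arrays within groups, so these values describe the samples and carry no test. Of the ventromedial list, 4 of 5 genes were on the array, 4 passed the filter and 3 were well above background in all samples. The sum of their normalized intensities was 9534 to 10620 in BYP and 5692 to 9211 in SNS, without overlap. It overlapped with both in BNS (5173 to 10500), BYS (6575 to 10210) and BYA (4991 to 11054). The choroid plexus, paraventricular and red blood cell sums did not overlap between BYP and SNS either. The share of all genes with such a separation is not given here. Taken singly, none of the 4 ventromedial genes was called in BYP against SNS (lowest limma adjusted p = 0.0727), where 28.9% of all genes were. In BYS against SNS 1 was called higher (0.0381), beside 27.1% of all genes called. How far ventromedial tissue in the dissection went with Mc3r was not tested.

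For Mc4r the closest genes were Gpr115, an adhesion G protein-coupled receptor (Pearson r = 0.933), the unnamed probe A_64_P000577 (0.924) and Esco1, a cohesin acetyltransferase (0.924). Each of them had its lowest group mean in SNS, as Mc4r had. Gpr115 was at a log2 level of 7.87 ± 0.07 in SNS and 8.20 ± 0.16 in BNS, and Esco1 at 8.68 ± 0.11 and 9.22 ± 0.13 (SD, n = 4 each). Taken as deviations from the group means, the correlation with Mc4r was 0.875 for Gpr115, 0.828 for A_64_P000577 and 0.932 for Esco1. The genes were picked for a high correlation over these same samples, which includes the part within groups. These values and the low SNS means therefore follow in part from that choice and carry no test.

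Mc5r and Mc2r lay near the background. The log2 level of Mc5r was 7.56, 7.58, 7.80 and 7.79 in SNS replicates 1 to 4. It lay between 7.61 and 7.72 in BNS, between 7.53 and 7.57 in BYS, and between 7.36 and 7.68 in BYA. In BYP it was 7.52, 7.52, 6.92 and 6.90 in replicates 1 to 4. The 2 low BYP values came from the same array, and the other pair of BYP samples lay within the range of BYA. When all genes were tested without the filter, Mc5r was called lower in BYP than in SNS, with a log2 fold change of -0.47 (limma adjusted p = 0.0142), and it was not called in the other 9 comparisons. Mc5r was well above background in 1 of 4 SNS samples and 0 of 4 BYP samples, so this is a difference between mostly dim spots and no fold is given.

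The log2 level of Mc2r was 7.17 to 7.43 over all 20 samples. No group had a detected sample, so the groups are neither ranked nor compared for Mc2r. Markers of cells in which the undetected receptors are known to act were read as well. Of 4 adrenal cortex genes 2 passed the filter, with a sum of 407 to 560 in SNS and 539 to 725 over the other groups. Against SNS, limma called 1 of them higher in each of BNS and BYP, and 2 in each of BYS and BYA. Of all genes, 28.6% were called in BNS, 27.1% in BYS, 31.3% in BYA and 28.9% in BYP. With 2 genes, these calls say little about adrenal cortex genes as a set. Cyp11b1 was well above background in 18 samples and Cyp17a1 in 8. Of 5 melanocyte genes 3 passed it, Dct, Pmel and Mitf, while Mlana was well above background in 2 samples.

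The genes that make, process and block the ligands came next. They are Pomc, the precursor of ACTH and the melanocyte-stimulating hormones, the antagonists Agrp and Asip, and the enzymes Pcsk1, Pcsk2, Cpe, Pam and Prcp. Of these 8 genes 7 passed the filter, all but Asip. Cpe, the carboxypeptidase that trims peptide ends, was higher in every betamethasone group than in SNS, with log2 fold changes of 1.00 in BNS, 1.02 in BYS, 1.03 in BYA and 1.01 in BYP (standard error 0.185, limma adjusted p from 0.000598 to 0.000863). The Cpe spot of SNS replicate 1 was an outlier and was left out, so SNS has 3 samples for this gene. With channels scaled to a common median in place of quantile normalization, none of these differences was called and they were 0.46 in BNS and 0.44 in BYP. Pcsk2, a prohormone convertase, was higher in BYS (0.50, limma adjusted p = 0.0131) and BYA (0.60, 0.00348). Pam, which amidates peptides, was lower in BNS than in SNS (-0.75, limma adjusted p = 0.0234). Pomc and Agrp were not called in any comparison. Pomc was at a log2 level of 14.68 ± 0.32 in SNS and 14.40 ± 0.32 in BYA, and Agrp at 14.35 ± 0.46 and 14.92 ± 0.06 (SD, n = 4 each).

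Proteins that bind or move the receptors were all measured, 9 of 9 genes. Mgrn1, a ubiquitin ligase that lowers melanocortin receptor signalling, was higher in BNS (log2 fold change 0.85), BYS (0.94), BYA (1.07) and BYP (0.79) than in SNS (limma adjusted p from 7.61e-05 to 0.00127). Atrnl1, a relative of the agouti co-receptor attractin, was higher in BYA (0.91, limma adjusted p = 0.0156) and BYP (0.78, 0.0341), and the arrestin Arrb1 was higher in BYA (0.56, 0.0222). Sdc3, a syndecan that presents agouti-related peptide, was lower in BNS (-0.29, 0.0425), as was Arrb2, another arrestin (-0.38, 0.0432). The accessory proteins of the receptors, Mrap and Mrap2, were not called in any comparison. Mrap2 was at 9.72 ± 0.13 in SNS and 9.37 ± 0.45 in BYA (SD, n = 4 each).

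In the signalling chain after the receptors, 7 of 8 genes passed the filter, all but the potassium channel gene Kcnj13. Prkaca, the catalytic subunit of the cyclic AMP-dependent kinase, was higher in BNS (0.70), BYS (0.69), BYA (0.79) and BYP (0.76) than in SNS (limma adjusted p from 2.25e-05 to 9.57e-05). Creb1, a transcription factor that the kinase activates, was lower in BNS (-0.59, limma adjusted p = 0.0074), as was the adenylyl cyclase Adcy3 (-0.37, 0.0412). Gnas, the stimulatory G protein subunit, was lower in BYA than in SNS (-0.50, 0.0421). Without BYA replicate 1, which had the lowest Gnas level, the Gnas difference was -0.26 and was not called (limma adjusted p = 0.159). Gnaq, Gna11 and Prkar2b were not called. Of 6 genes that act after Mc4r in energy balance, all passed the filter and 1 was called, Trh, which encodes thyrotropin-releasing hormone and was lower in BYA than in SNS (-0.68, 0.0266). Sim1, Bdnf, Ntrk2, Crh and Brs3 were not called.

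**Figure D5:**
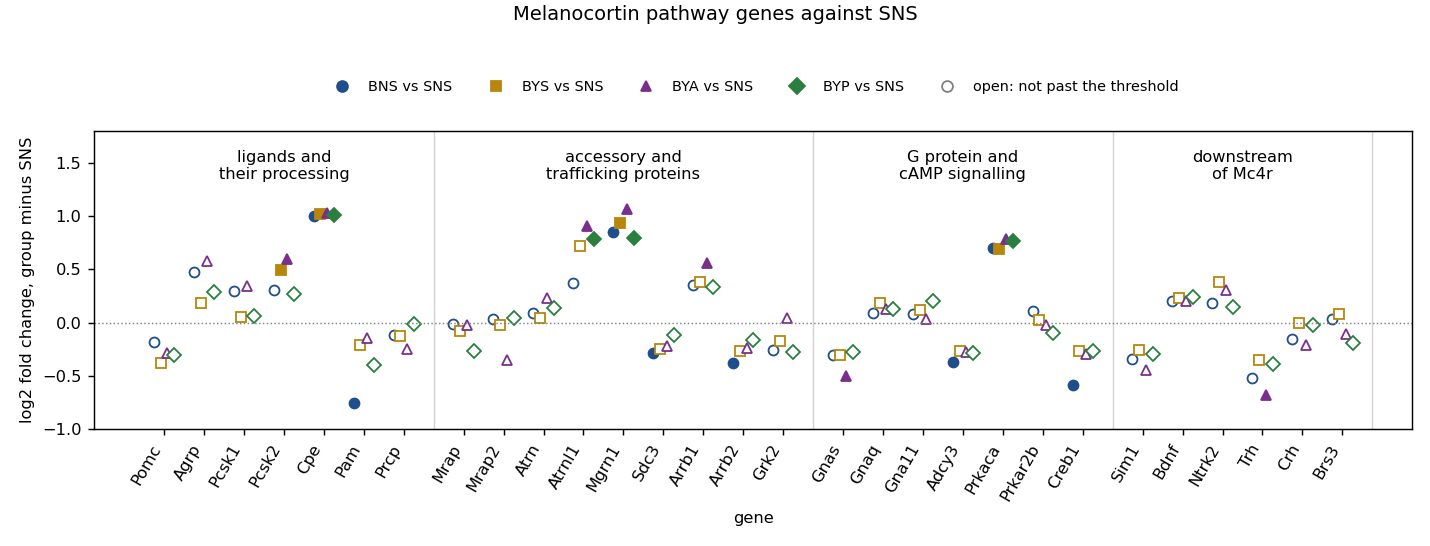
Log2 fold change of each betamethasone group against SNS for the 29 pathway genes that passed the filter, in 4 lists; filled symbols had a limma adjusted p under 0.05. Cpe, Mgrn1 and Prkaca have 4 filled symbols each, from 0.69 to 1.07, while Pomc, Agrp, Mrap and Mrap2 have only open ones.

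Over the 4 lists together, 8 of 29 genes were called in BNS against SNS (3 higher, 5 lower), 4 in BYS (all higher), 8 in BYA (6 higher, 2 lower) and 4 in BYP (all higher). These are 27.6%, 13.8%, 27.6% and 13.8% of the 29, beside a background of 28.6%, 27.1%, 31.3% and 28.9% of all genes. With the array as a random block, 4, 3, 5 and 3 of the 29 were called, or 13.8%, 10.3%, 17.2% and 10.3%, beside 15.1%, 13.9%, 19.4% and 15.5% of all genes. Cpe, Mgrn1 and Prkaca were among them in each comparison, joined by Creb1 in BNS and by Pcsk2 and Arrb1 in BYA. The list medians in BNS against SNS were 0.29 for the ligands and their processing, 0.03 for the accessory proteins, 0.08 for the signalling genes and -0.06 for the genes after Mc4r, beside -0.04 for all genes. In the 6 comparisons among betamethasone groups limma called 0 of the 29 genes. An unadjusted p under 0.05 was found for 1 to 4 of them, or 3.45% to 13.8%, beside 6.92% to 17.8% of all genes. In BYA against BYS, where the ligand differs, the list medians were 0.10, 0.13, -0.04 and -0.19 in the same order, beside -0.0028 for all genes. Each of the 24 called differences of pathway genes with SNS kept its sign under median scaling, processed signals and no background correction. When each of the 20 samples was left out in turn, every called difference of Cpe, Mgrn1, Prkaca and Creb1 was called in all 20 fits, as was that of Pcsk2 in BYA. The other 10 were lost in some of them. Pcsk2 in BYS and Atrnl1 in BYA were called in 19 of 20 fits, Trh in 17, Pam and Arrb1 in 16, Atrnl1 in BYP in 15, Arrb2, Gnas and Adcy3 in 14 and Sdc3 in 13.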

How the data were processed

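Total RNA of the arcuate nucleus of 20 female rats was hybridised to 2-colour Agilent rat arrays of 44254 spots, 42877 of them not controls. The authors deposited scanner output in which Feature Extraction (version 10.7.3.1 in the submitters' processing notes, 11.5.1.1 per the file headers) gives each spot's mean intensity in each channel, its local background intensity and flags, with no normalization of the mean signal. A channel was a sample, and groups came from the GEO labels. Another 82 columns, from channels that hold samples of another series, were not used.

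Intensities were background-corrected with normexp (offset 50), log2-transformed and quantile normalized over 20 channels with limma 3.58.1 in R 4.3.3. Spots flagged as outliers (1.18%) were left out. A probe was kept where some group had it detected in each of its 4 samples, that is with a share of at least 0.5 of its spots flagged as well above background, which left 19883 of 30367 probes. Gene levels were means over the kept probes without missing values. Where every kept probe of a gene had some, the first with the fewest was used. All 10 pairs of groups were compared with limma and a dye term, with Benjamini-Hochberg adjustment over all genes and a threshold of 0.05, and an F test covered all groups. The fit was tested on simulated data.

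Receptors, pathway lists and marker lists were chosen with earlier results of these data known. The genes named were the receptors, genes of the pathway lists, the 3 genes most correlated with each receptor that passed the filter, and markers beside a result. Alternatives changed the scaling, background, signal column, dye normalization, filter, probe summary, covariates, blocks, samples and test, and left out each sample in turn. Replicate numbers did not pair the samples: deviations from group means correlated with a mean r of 0.0031 between the same numbers (40 pairs) and of -0.00075 between different numbers (120 pairs). Gene names are RefSeq symbols for the 61.4% of probes whose accession matched the RefSeq table, and those of the files for the rest. Nothing in the labels says which rats were littermates, so p-values measure the spread between these samples. Samples of a group differed by a mean of 0.209 (log2) on the same array (9 pairs) and 0.257 on different arrays (21 pairs).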

Additional observations from a re-analysis of the deposited data

Results flagged for a closer look

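In 10 of 164 groups of 4 samples, over the 4 receptors with a probe and the 29 pathway genes, 1 sample lay far from the others by Dixon's test at the 95% level, where chance flags about 1 in 20 groups. Among the receptors, Mc2r was highest in BYA replicate 4 (log2 level 7.40, the nearest of the others at 7.19) and lowest in BYP replicate 3 (7.20, nearest 7.38). Mc5r was highest in BYS replicate 2 (7.57, nearest 7.54). Neither Mc2r value was well above background, while the Mc5r value was. No group of Mc3r or Mc4r held such a sample.

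Among the pathway genes, Prcp was lowest in BYS replicate 2 (7.64, nearest 7.96) and in BYP replicate 2 (7.81, nearest 8.05). In BYA replicate 1, Atrnl1 was highest (11.72, nearest 10.27) and Gnas was lowest (13.38, nearest 14.36). Without that sample the Atrnl1 difference between BYA and SNS was 0.53 and was still called (limma adjusted p = 0.0432). Arrb1 was lowest in BYP replicate 4 (8.03, nearest 8.14), Gnaq was highest in BYA replicate 4 (8.08, nearest 7.90) and Creb1 was highest in BYS replicate 4 (8.95, nearest 8.54).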

How the results depend on the processing

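Of 690 fold changes of Mc3r and Mc4r recomputed under the alternatives, 13 lost their call, none gained one or reversed, and 38 that were not called changed sign. Only the 4 Mc4r comparisons with SNS had a call to lose. Among 14 alternatives for Mc4r, 12 called it for BNS against SNS, 13 for BYP, and 11 for each of BYS and BYA. Of 20 fits without a single sample, 16 called it for BNS against SNS and all 20 for each other group. Leaving out a sample from outside a comparison did not move its Mc4r fold change. With processed signals, or with a filter asking for detection in every group (which removes Mc4r), the number of receptors called was 0 against SNS in BNS, BYS, BYA and BYP and 0 in the F test over all groups. It was 0 in BYS and BYA against SNS with median scaling (Mc4r limma adjusted p = 0.0812 and 0.0534) and with the methods' test after Benjamini-Hochberg adjustment (0.0898 and 0.0979). With a random block for the array it was 0 in BNS against SNS and 0 in the F test. Without a filter it was 2 in BYP against SNS, Mc5r being added. The methods' test without adjustment called Mc4r in all 4 comparisons with SNS and no receptor in the other 6. Leaving out single samples gave 0 to 1 receptors called in BNS against SNS and 0 to 1 in the F test, which missed Mc4r without SNS replicate 1 (limma adjusted p = 0.0518) or 2 (0.0568). By the software's flag for positive and significant signal, Mc2r was detected in 2 samples and Mc5r in 13. With the exception of the filter, whose effect lies in its construction, the cause was not tested.

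The replicate numbers did not pair the samples, and with the number as a replicate block Mc4r was called in the same 4 comparisons (limma adjusted p = 0.0166 in BNS, 0.00406 in BYS, 0.00424 in BYA and 0.0048 in BYP against SNS). Median scaling moved the median of all genes to -0.14 in BNS, -0.13 in BYS, -0.06 in BYA and -0.11 in BYP against SNS, and its calls were 2651, 1441, 1389 and 4902 genes. Between BYP and BYS it called 2849 genes, against 6 with quantile normalization, and between BYP and BNS 0, against 257. Against SNS, calls over all genes in BNS, BYS, BYA and BYP were 4884, 4631, 5342 and 4938 as reported, 2333, 2318, 1943 and 2717 with processed signals, 2588, 2378, 3306 and 2643 with a random block for the array and 3206, 2298, 1555 and 2019 with the adjusted methods' test. A random block for the slide raised them to 8142 in BNS, 7854 in BYS and 8131 in BYP. Slides did not mix groups, so this block cannot separate slide from group, and its fitted correlation within slides was negative (-0.128). Neither these raised counts nor the calls of Mc4r under the slide block are therefore read as evidence. Fits of only the 8 samples compared gave 3022 in BYA and 3141 in BYP. The stricter filter, which tests fewer genes, gave 3214 in BNS and 3285 in BYP. Low signal limits Mc5r and Mc2r in all groups and Mc4r in SNS.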
